A study of Mus musculus with 4 samples.

Results

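Regulatory T cells (Tregs) of the mouse prostate were selected by their transcripts, and 634 of the 31165 cells kept from 4 single-cell RNA libraries met the rule. Kept cells had at least 500 unique molecular identifiers (UMIs, each standing for 1 captured transcript), a minimum of 200 genes, and no more than 20% of UMIs from mitochondrial genes. A kept cell counted as a T cell with at least 2 UMIs of Cd3e, Cd3d and Cd3g together, and as a Treg if it also had at least 1 UMI of Foxp3 or at least 3 UMIs of Ikzf2 and Ctla4 together. Cells with any Cd8a, Cd8b1 or Cd79a UMI were left out, as were cells with 2 or more UMIs of Il17a, Il17f and Cd163l1, and cells with 10 or more UMIs of C1qa, C1qb and C1qc per 10000. The members were thus chosen by measured levels of 15 genes, and the levels of those genes are given as a description only.

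The 4 libraries, always listed in this order, were Trp53-intact (mice aged 4 months), Trp53-intact ADT (5.5 months), Trp53-deleted (3.5 months) and Trp53-deleted ADT (5.5 months). The Trp53-intact mice were not wild type, as the rest of the genotype was common to all groups. PC, the mark on Trp53 in the genotype, is not explained in the labels and is read here as deletion in the prostate only. On that reading, the T cells themselves were not the target of the deletion. ADT is not spelled out in the labels and is read here as androgen deprivation therapy. With 1 library in each group, an effect of ADT cannot be told apart from one of age or of the library itself. The same holds for genotype, and no test between groups was possible. The libraries held 8094, 7751, 5694 and 9626 kept cells with medians of 5262, 4081, 4460 and 5562 UMIs, and 7 of the 634 Tregs had a barcode that also occurred in another library. Levels are CPM, UMIs of a gene scaled to 1000000 UMIs, with UMIs summed over the cells of a set, and intervals are 95% intervals that cover counting error only.

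Tregs are CD4 T cells that restrain other immune cells. Their fate is set by Foxp3, a transcription factor, helped by the related factor Helios (Ikzf2), and they carry the inhibitory receptor Ctla4, which removes costimulatory ligands from antigen-presenting cells. In non-lymphoid tissues many Tregs take on an activated form with the IL-33 receptor (Il1rl1, also called ST2), Klrg1, Gata3 and receptors of the TNF receptor family such as OX40 (Tnfrsf4), 4-1BB (Tnfrsf9) and GITR (Tnfrsf18). In GENCODE M21 on GRCm38, Foxp3 lies at chrX:7573644-7595245 on the plus strand, Ikzf2 at chr1:69531214-69687245 on the minus strand and Ctla4 at chr1:60887000-60915832 on the plus strand.

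The 3 rule genes met in the same cells. Foxp3 was detected in 0.759% of CD8-negative T cells with no Ikzf2 or Ctla4 UMI (5 of 659), in 1.93% of those with 1 to 2 UMIs (6 of 311), in 15.2% with 3 to 5 (30 of 197), in 32.8% with 6 to 9 (43 of 131) and in 59% with 10 or more (174 of 295). Median depths in these bins were 4817, 4939, 4840, 4001 and 4278 UMIs, so the bins with more Foxp3 were not the deeper ones. At 10 or more UMIs the share with Foxp3 was 61.4%, 60.7%, 62.8% and 50% in the 4 libraries. In cell types that should lack Foxp3, a UMI was found in 3 of 1859 B cells (0.161%, median depth 4719 UMIs) and in 0 of 1677 neutrophils (median depth 3311 UMIs, interval up to 0.22%). CD8 T cells had one in 1.41% (11 of 782), and T cells with IL-17 genes in 0 of 192.

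**Figure D1:**
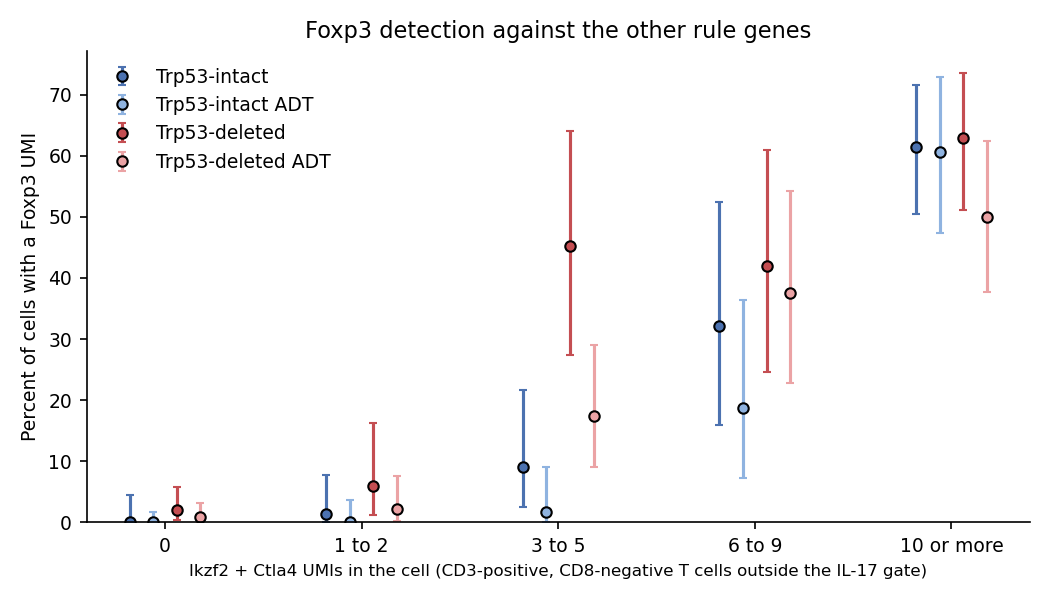
Percent of CD3-positive, CD8-negative T cells outside the IL-17 gate with at least 1 Foxp3 UMI (y axis), by the summed UMIs of Ikzf2 and Ctla4 in the cell (x axis), for each library; bars are 95% Clopper-Pearson intervals. The share stays near 0 up to 2 UMIs and reaches 50% to 62.8% at 10 or more in the 4 libraries.

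The rule has 2 ways in. Cells with a Foxp3 UMI numbered 68, 44, 82 and 64 (258 in all), and nearly all of them had Ikzf2 or Ctla4 as well: 66, 44, 78 and 56 had Ikzf2, and 60, 44, 66 and 56 had Ctla4. Cells that entered through Ikzf2 and Ctla4 alone numbered 93, 108, 64 and 111 (376 in all). Of these Foxp3-negative cells, 48, 46, 40 and 55 had both Ikzf2 and Ctla4, and the rest had 1 of the genes only. The Foxp3-negative cells are called by that name below, because the label of Treg was borne out for only some of them. The name means only that no Foxp3 UMI was captured. Of the cells with a Foxp3 UMI, 29, 10, 31 and 37 had exactly 1. How many Foxp3-negative cells express the gene below detection was not tested. At the edge of the rule, 69 Foxp3-negative cells were just inside with an Ikzf2 and Ctla4 sum of 3, and 114 were just outside with a sum of 2. At the CD3 limit, 68 members had exactly 2 UMIs, and 94 cells failed with 1.

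Tregs were a smaller share of T cells in both ADT libraries. They made up 33.9% of CD3-positive cells in Trp53-intact (161 of 475, interval 29.6 to 38.3) and 17.6% in Trp53-intact ADT (152 of 863, 15.1 to 20.3). In Trp53-deleted they made up 30.6% (146 of 477, 26.5 to 35) and in Trp53-deleted ADT 17.7% (175 of 986, 15.4 to 20.3). The intervals of both ADT libraries lay below those of both libraries without ADT. These intervals cover counting error only, and not the spread between mice or libraries. Whether ADT changed the share was therefore not tested, as ADT cannot be told apart here from age or from the library itself.

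The share among all kept cells gave another picture. Tregs were 1.99% (1.7 to 2.32), 1.96% (1.66 to 2.29), 2.56% (2.17 to 3.01) and 1.82% (1.56 to 2.11) of kept cells. The lower share among T cells went with more T cells: CD3-positive cells were 5.87%, 11.1%, 8.38% and 10.2% of kept cells. CD8 T cells numbered 65, 320, 92 and 305, so there were 2.48 (1.85 to 3.36), 0.475 (0.389 to 0.578), 1.59 (1.21 to 2.08) and 0.574 (0.474 to 0.693) Tregs per CD8 T cell.

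Counting only cells with a Foxp3 UMI gave the same order for ADT. They were 14.3% (11.3 to 17.8), 5.1% (3.73 to 6.78), 17.2% (13.9 to 20.9) and 6.49% (5.03 to 8.21) of CD3-positive cells. As a share of all kept cells they were 0.84% (0.653 to 1.06), 0.568% (0.413 to 0.761), 1.44% (1.15 to 1.78) and 0.665% (0.512 to 0.848). Depth moved in the same comparison, since Tregs had median depths of 4391, 5877.5, 3593.5 and 3922 UMIs. Each T cell was also thinned to 1500 UMIs (5, 10, 41 and 30 shallower T cells left out), and all gates were applied again. Only 336, 618, 291 and 687 thinned cells still met the CD3 limit. The Treg shares of these cells were 24.1%, 8.09%, 22.3% and 10.9%, again lower in both ADT libraries.

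**Figure D2:**
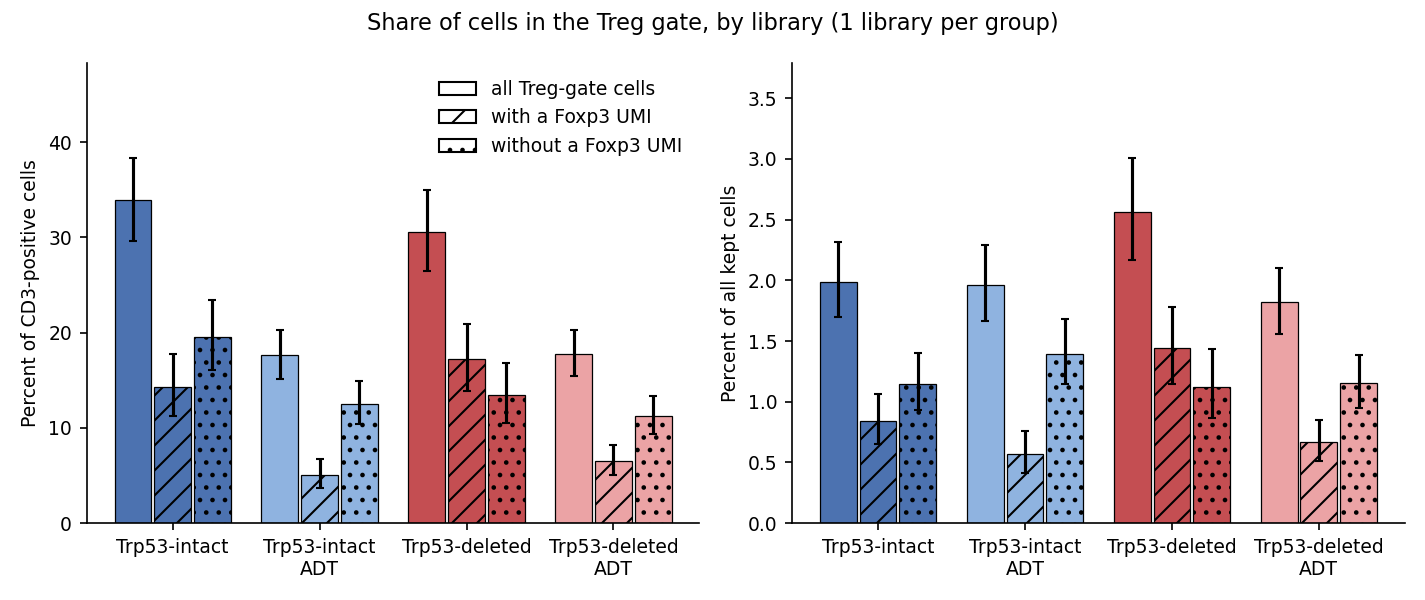
Share of cells in the Treg gate among CD3-positive cells (left) and among all kept cells (right), in percent, for the 4 libraries; plain bars are all Tregs, hatched bars those with a Foxp3 UMI, dotted bars those without, and error bars are 95% Clopper-Pearson intervals. On the left both ADT libraries sit at 17.6% and 17.7% against 33.9% and 30.6%, while on the right the 4 libraries lie between 1.82% and 2.56%.

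Genes outside the rule were then compared between Tregs and the other CD8-negative T cells, 150, 308, 193 and 308 cells that had passed every other gate. UMIs were summed per library, and edgeR's quasi-likelihood test was fitted over 4 pairs with the library as a block, so that the libraries served as the replicates. Of 8768 genes, 77 (0.878%) were higher and 52 (0.593%) were lower in Tregs at a Benjamini-Hochberg adjusted p of at most 0.05 over all genes. Genes that rose included activation receptors of the TNF receptor family, tissue Treg genes and an Ikzf2 relative, and genes that fell included transcription factors and an egress receptor of resting T cells. A few members carried very many UMIs, the deepest with 166048 UMIs or 12.1% of all Treg UMIs of the Trp53-intact ADT library, and another with 153232 UMIs or 11.5% in Trp53-deleted ADT. Without the deepest 5% of CD3-positive cells of each library, 268 genes were higher (3.7%) and 157 lower (2.17%) of 7248, and 63 of the 77 and 44 of the 52 were called again. Fewer recurred when a whole library was left out. Leaving out each in turn, in library order, 37, 31, 17 and 29 of the 77 were called again. Of the 52 lower genes, 33, 8, 3 and 5 were.

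OX40 (Tnfrsf4), a costimulatory receptor, stood at 820, 267, 339 and 410 CPM in Tregs and at 59.1, 37.3, 42.3 and 62.4 CPM in other T cells. Its log2 fold change was 2.96 (SE 0.21, adjusted p 0.00119, edgeR). The same direction in 4 of 4 libraries was required of genes named by rank, so it is no further support for them. 4-1BB (Tnfrsf9) stood at 289, 120, 119 and 149 CPM against 13.6, 16.1, 12.1 and 7.87 CPM, a log2 fold change of 3.53 (SE 0.29, adjusted p 0.00192). PD-1 (Pdcd1), an inhibitory receptor, stood at 274, 62.6, 96.1 and 80.3 CPM against 14.8, 15.6, 4.02 and 29.7 CPM, and its log2 fold change was 2.61 (SE 0.47, adjusted p 0.0433). Of the 12 costimulatory and checkpoint receptors tested, Tnfrsf9, Pdcd1 and Tnfrsf1b (TNF receptor 2) were higher and Cd96 was lower (adjusted p 0.0469, and 0.0843 without the deepest cells, edgeR). The costimulatory receptor Icos, at 628, 383, 442 and 499 CPM in Tregs and 449, 323, 245 and 342 CPM in other T cells, had an adjusted p of 0.215, and of 0.011 without the deepest cells.

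Among genes known to mark Tregs but outside the rule, 6 of 11 tested were higher and none was lower, with a median log2 fold change of 1.35 against 0.01 over all genes. The 6 were Ikzf4, Tnfrsf4, Il2ra, Swap70, Tnfrsf18 and Lrrc32. Eos (Ikzf4), a Foxp3 partner of the Ikaros family, stood at 99.8, 25.5, 74.3 and 56.3 CPM in Tregs and at 2.27, 4.03, 11.1 and 4.24 CPM in other T cells. Its log2 fold change was 3.31 (SE 0.38, adjusted p 0.00806, edgeR). The IL-2 receptor alpha chain Il2ra stood at 196, 152, 406 and 107 CPM against 68.2, 41.3, 24.1 and 35.1 CPM. Il2ra was not peculiar to Tregs, since T cells with IL-17 genes had 133, 224, 299 and 112 CPM. Lrrc32 (GARP), which holds latent TGF-beta at the surface, was higher by a log2 fold change of 1.35 (SE 0.23, adjusted p 0.038, edgeR). Cd4 itself was at 127, 94.6, 187 and 75.8 CPM in Tregs and at 70.5, 122, 236 and 95.1 CPM in other CD8-negative T cells, with a log2 fold change of -0.20 that did not pass.

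Klrg1, an inhibitory lectin receptor, stood at 196, 80.8, 277 and 24.8 CPM in Tregs and at 5.69, 0.504, 12.1 and 4.24 CPM in other T cells. Its log2 fold change of 4.49 (SE 0.44, adjusted p 0.00454, edgeR) led all named genes. Il1rl1, the IL-33 receptor, stood at 368, 141, 427 and 148 CPM against 52.3, 42.8, 34.2 and 64.2 CPM, a log2 fold change of 2.17 (SE 0.36, adjusted p 0.0333, edgeR). In this list 4 of 8 tested genes were higher, the others being the integrin chain Itgav and the activation marker Cd83, and none was lower, with a median of 1.21. Itgb8, the integrin chain that pairs with Itgav and helps to release active TGF-beta, was also among the named genes, with 43.2, 17.5, 56.4 and 29.3 CPM against 4.55, 1.51, 3.02 and 7.87 CPM. Ccr9, a gut homing receptor, stood at 119, 26.9, 365 and 21.8 CPM against 7.96, 10.1, 6.04 and 2.42 CPM, a log2 fold change of 3.44 (SE 0.61, adjusted p 0.0419, edgeR). The Ccr9 call was lost without the Trp53-intact, the Trp53-deleted or the Trp53-deleted ADT library (adjusted p 0.1, 0.134 and 0.0747), and the Itgb8 call without Trp53-deleted (0.0748).

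Other named genes of high fold were Neb, which encodes the muscle protein nebulin, at 85.4, 33.5, 123 and 24 CPM in Tregs against 6.82, 2.52, 1.01 and 1.21 CPM, and Pcsk1, which encodes a prohormone convertase, at 21.1, 11.6, 66.6 and 10.5 CPM against 1.14, 0.504, 2.01 and 1.21 CPM. The log2 fold changes were 4.23 for Neb and 4.08 for Pcsk1 (adjusted p 0.00349 and 0.00486, edgeR). The phosphatase gene Dusp4, the HMG-box factor Tox2 and Dgat2, an enzyme of triglyceride synthesis, followed with log2 fold changes of 2.70, 2.78 and 2.69. All of these were named by rank, for which a rise in 4 of 4 libraries was required. Without the Trp53-deleted library the adjusted p was 0.0771 for Pcsk1, 0.122 for Tox2 and 0.0728 for Dgat2, and without Trp53-intact it was 0.0692 for Tox2 and 0.0715 for Dgat2.

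Transcription factors of effector and tissue Tregs passed less widely, with Id2 higher (log2 fold change 0.96, SE 0.12, adjusted p 0.0108, edgeR) and the other 13 of 14 not past the threshold. Gata3 was at 643, 258, 362 and 96 CPM against 175, 120, 122 and 76.3 CPM (log2 fold change 1.12, adjusted p 0.0673). Without the deepest cells 10 of the 14 were higher, among them Gata3, Rora, Batf, Irf4, Prdm1 and Maf. Of the genes of the TCR and NF-kB response, Rel, Traf1 and Nfkbia were higher among 15. Rel, which encodes the NF-kB subunit c-Rel, stood at 450, 207, 187 and 209 CPM against 121, 99.2, 86.5 and 78.1 CPM. Of 9 suppressive mediators, Ebi3, a subunit of IL-35, was higher, at 24.4, 15.3, 17.9 and 10.5 CPM against 2.27, 3.52, 2.01 and 2.42 CPM. Tgfb1 was at 159, 139, 219 and 166 CPM against 108, 105, 145 and 133 CPM, with an adjusted p of 0.251, and of 0.0303 without the deepest cells (edgeR). Il10, too low to be tested, had 15.5, 26.2, 5.12 and 20.3 CPM in 7, 8, 3 and 5 Tregs and at most 3.41 CPM in other T cells.

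Genes of resting and recirculating T cells were lower, 6 of 13 tested with none higher and a median log2 fold change of -1.45. Lef1, a factor of naive T cells, stood at 13.3, 72.8, 43.5 and 52.5 CPM in Tregs and at 52.3, 318, 301 and 128 CPM in other T cells. Its log2 fold change was -2.16 (SE 0.25, adjusted p 0.00806, edgeR). Satb1, a chromatin organiser, stood at 83.2, 219, 123 and 140 CPM against 188, 777, 704 and 382 CPM (log2 fold change -1.87). Tcf7, the egress receptor S1pr1 and Igfbp4 were among the other genes of the list that fell. Bcl2, the survival factor, fell as well, at 102, 135, 96.1 and 113 CPM against 242, 201, 335 and 237 CPM, with a log2 fold change of -1.28 (adjusted p 0.026).

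Cell cycle genes were 3 of 18 higher (Cdk1, Mki67 and the histone gene H2afz), but the count rested on few cells. Mki67 had UMIs in 11, 12, 12 and 20 Tregs, and its adjusted p of 0.0418 (edgeR) became 0.218, with a log2 fold change of 0.76, without the deepest cells. Tpx2, Cenpe and Pclaf, named among the higher genes, had too few UMIs to be tested there. Of the interferon response (24 genes), AP-1 and dissociation stress (17), homing (13) and MHC class I (10) lists, none passed in either direction in all cells. Without the deepest cells 7 of 23 interferon genes were higher, among them Usp18, Ifit3 and Isg15, as were 3 of 13 homing genes (Itga4, Ccr6 and Ccr4), and 3 of 17 stress genes were higher and 1 lower. Cd209a, a dendritic cell gene, was also called higher, from UMIs in only 3, 2, 4 and 1 Tregs. Dendritic cell markers summed to 3175, 1099, 2773 and 1624 CPM in Tregs and to 2230, 817, 1214 and 1029 CPM in other T cells, with none of the 7 at 0, and their part in the gene counts was not tested.

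**Figure D3:**
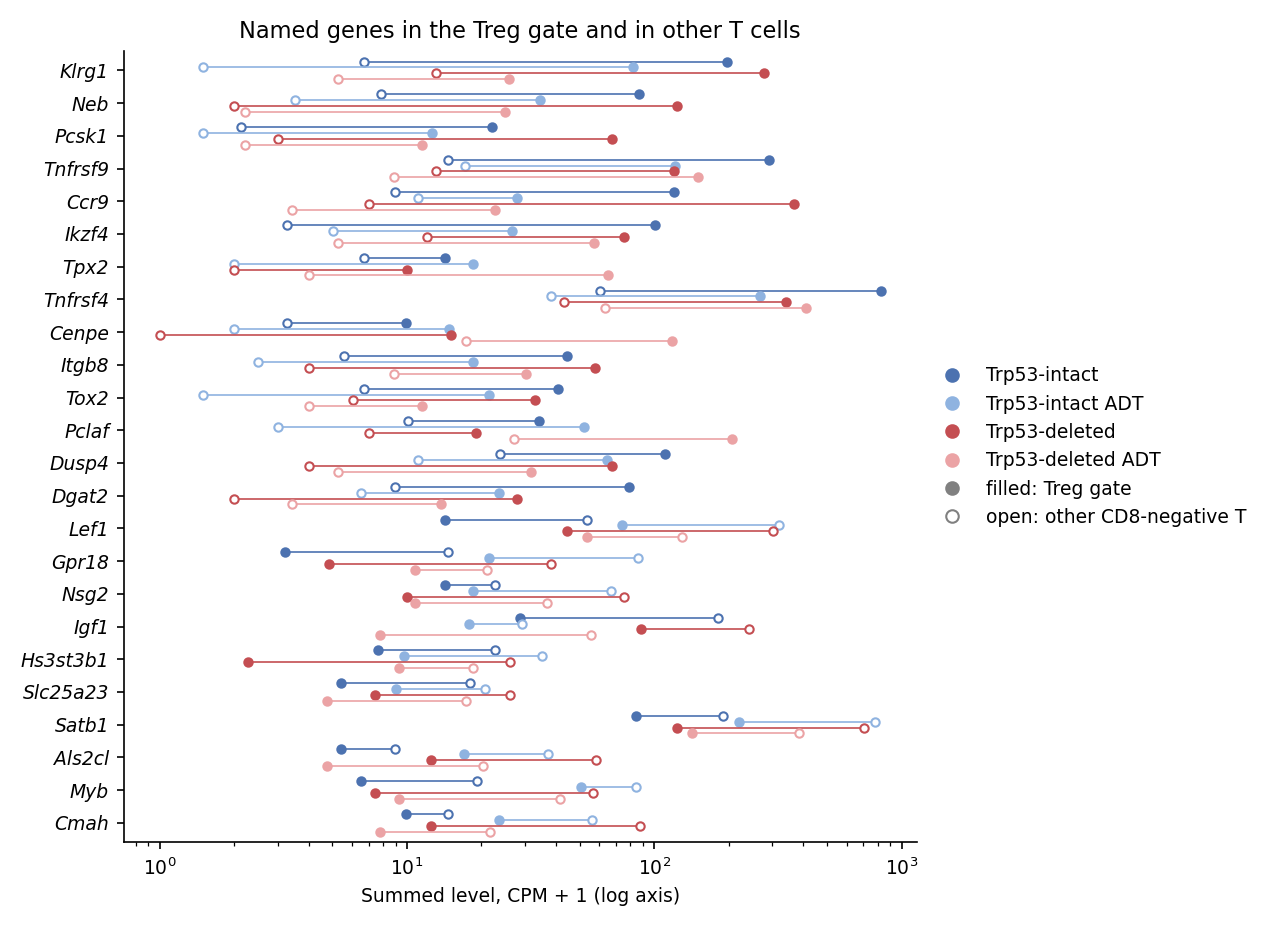
Summed level of the 24 named genes (CPM plus 1, log axis) in Tregs (filled points) and in other CD8-negative T cells (open points), joined by a line for each library. The 14 upper genes are higher and the 10 lower genes are lower in Tregs in each of the 4 libraries, as their selection required.

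The test was then run for each kind of member. Cells with a Foxp3 UMI against other T cells gave 168 genes higher (2.35%) and 106 lower (1.48%) of 7143, and 67 of the 77 genes called for all Tregs were among the higher ones. The Foxp3-negative cells against other T cells gave 8 higher (0.0996%) and 1 lower (0.0125%) of 8030, with 850 genes at an unadjusted p under 0.05. All 9 were calls of the joint comparison, and they included Tnfrsf4, Tnfrsf9 and Klrg1 among the higher and Lef1 as the lower gene. Whether the 2 kinds differ was tested directly, as follows.

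Foxp3-positive and Foxp3-negative members were also compared with each other, a comparison added after the data had been seen. It called 2 genes higher (0.0328%) and 7 lower (0.115%) of 6100 in Foxp3-positive cells, and without the deepest cells 72 higher (1.69%) and 53 lower (1.25%) of 4257. The values that follow come from the fit without the deepest cells, by edgeR, whereas the CPM are of all cells. Klrg1 stood at 371, 189, 347 and 53.5 CPM in them and at 85.2, 13, 169 and 15.1 CPM in Foxp3-negative members (log2 fold change 1.98, SE 0.35, adjusted p 0.010). Il1rl1 stood at 648, 291, 474 and 211 CPM against 190, 47.4, 353 and 126 CPM (log2 fold change 1.58, adjusted p 0.018). Ccr9, Itgb8, Tnfrsf4 and Dgat2 rose as well. The same direction in 4 of 4 libraries was again required of the genes named by rank. In the fit of all cells Dgat2 passed (adjusted p 0.0483), and Klrg1 (0.117), Il1rl1 (0.264), Ccr9 (0.0883), Itgb8 (0.18) and Tnfrsf4 (0.113) did not.

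Genes lower in Foxp3-positive cells included some known from cytotoxic and innate-like lymphocytes. The chemokine gene Xcl1 stood at 2.85, 0, 0 and 0 CPM in Foxp3-positive cells and at 65.3, 480, 178 and 163 CPM in Foxp3-negative members. Cd7 stood at 0, 9.44, 0 and 0 CPM against 32.6, 267, 328 and 116 CPM, and Klrk1, the NKG2D receptor, at 2.85, 3.78, 4.23 and 5.94 CPM against 52.6, 86.5, 61.6 and 55.2 CPM. All 3 genes were named by rank, for which a fall in 4 of 4 libraries was required. The cytotoxic granule gene Nkg7 stood at 2.85, 17, 2.12 and 71.3 CPM against 131, 329, 256 and 172 CPM (log2 fold change -4.20, SE 0.39). Gzmb (granzyme B), the chemokine gene Ccl5, the CD40 ligand gene Cd40lg, Tnfsf8 (CD30 ligand) and Bcl2 were lower too. In the fit of all cells Xcl1, Klrk1, Cd7, Gzmb and Tnfsf8 passed, and Nkg7 (adjusted p 0.113), Ccl5 (0.265), Cd40lg (0.149) and Bcl2 (0.0788) did not. Cd40lg and Tnfsf8 are known from activated conventional CD4 T cells.

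Marker lists of other cell types also differed between the kinds of member. The 6 natural killer markers summed to 25.7, 1.89, 6.35 and 8.91 CPM in Foxp3-positive cells, where Ncr1, Klrb1c and Klra8 were at 0 in all libraries, and to 63.5, 416, 156 and 64.2 CPM in Foxp3-negative members. The 5 gamma delta and innate-like markers summed to 0, 3.78, 12.7 and 5.94 CPM in Foxp3-positive cells, with Tcrg-C1, Tcrg-C2 and Tcrg-C4 at 0 throughout, and to 196, 186, 120 and 86.3 CPM in Foxp3-negative members. Other CD8-negative T cells had 207, 124, 144 and 101 CPM of the latter. The 8 macrophage markers summed to 536, 479.5, 2941 and 3134 CPM in Foxp3-positive cells, with none at 0, and to 600, 338, 986 and 467 CPM in Foxp3-negative members. Dendritic cell markers summed to 2245, 1599, 3917 and 4598 CPM against 3766, 785, 1021 and 619 CPM. Both were higher in the Foxp3-positive cells of every library but Trp53-intact, and the part of any of these markers in the gene counts was not tested.

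Within the T cells that lacked a Foxp3 UMI, some Treg genes were higher at a high Ikzf2 and Ctla4 sum. Tnfrsf9 went from 13.5, 13.2, 3.01 and 6.3 CPM at a sum of 0 to 227, 97.2, 237 and 194 CPM at 10 or more. Klrg1 went from 4.51, 0.776, 10.5 and 1.8 CPM to 180, 38.2, 496 and 31.2 CPM, and was at 0 CPM from 1 to 9 UMIs in the Trp53-intact ADT library. Il1rl1 followed no such gradient below 10 UMIs, at 64.4, 2.87, 0 and 0 CPM in the bins up to 9 UMIs in Trp53-intact ADT, and Gata3 in Trp53-deleted ADT was at 67.6 CPM at a sum of 0 and 76.2 CPM at 10 or more. Tnfrsf4 at 10 or more reached 710, 153, 572 and 277 CPM. In the same bin Nkg7 was at 4.73, 243, 108 and 277 CPM and Xcl1 at 0, 618, 86.3 and 298 CPM. Foxp3-negative cells with a high sum thus held much Tnfrsf9 in all 4 libraries, and also held Nkg7 and Xcl1 in every library but Trp53-intact, where both were at or near 0.

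**Figure D4:**
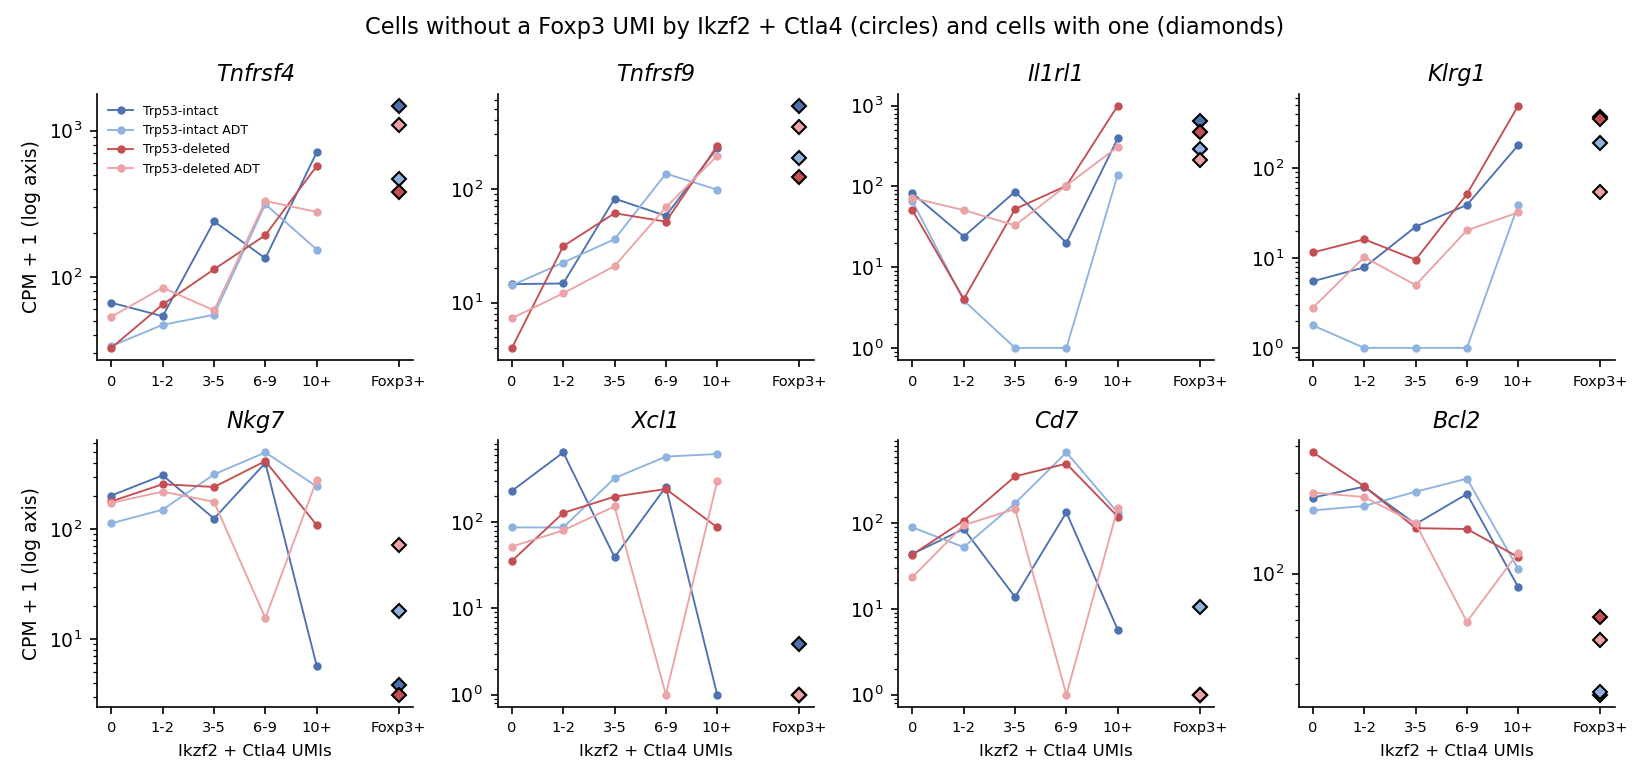
Summed level (CPM plus 1, log axis) of 8 genes in CD8-negative T cells without a Foxp3 UMI, by their Ikzf2 and Ctla4 UMIs (circles joined by library), and in cells with a Foxp3 UMI (diamonds). Tnfrsf9 climbs from at most 13.5 CPM at a sum of 0 to at least 97.2 CPM at 10 or more, whereas Xcl1 is at 0 in Foxp3-positive cells of 3 libraries and reaches 618 CPM in Foxp3-negative cells.

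Levels in Tregs were next set side by side between libraries, with 1 library a group and hence no replicate check. Ratios are log2 of CPM with 20 CPM added to each side. Of 8671 genes with at least 20 UMIs over both Trp53-intact libraries, 231 (2.66%) were at least 2-fold higher and 100 (1.15%) at least 2-fold lower with ADT. Of 8984 genes in the Trp53-deleted pair, 376 (4.19%) were higher and 353 (3.93%) lower with ADT. The median log2 ratio of all genes was 0.13 in the first pair and -0.06 in the second. The 2 pairs share no library. A lower summed level can stem from fewer Tregs of a kind or from less RNA per cell, which cannot be told apart here.

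Some tissue Treg genes were lower with ADT in both pairs. With ADT, Klrg1 stood at 80.8 CPM against 196 CPM in the Trp53-intact pair (0.412-fold, interval 0.322 to 0.525) and at 24.8 against 277 CPM in the Trp53-deleted pair (0.0895-fold, 0.0601 to 0.13). Il1rl1 was 0.384-fold (0.32 to 0.459) and 0.347-fold (0.289 to 0.415), and the transcription factor gene Gata3 was 0.401-fold (0.35 to 0.458) and 0.265-fold (0.213 to 0.328). By the levels given above, Gata3 was also lower with ADT in other CD8-negative T cells of both pairs, by a smaller factor. Ccr9 was 0.227-fold (0.152 to 0.333) and 0.0596-fold (0.0392 to 0.0875), and Neb 0.392-fold (0.266 to 0.572) and 0.195-fold (0.127 to 0.294). Of the 8 tissue Treg genes measured, 3 were at least 2-fold lower in each pair and none was higher, with medians of -0.77 and -0.75. Klrg1 and Il1rl1 were among the 3 both times, joined by Cd83 in the first pair and by Cxcr6 in the second.

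For Gata3, Il1rl1, Klrg1 and Ccr9 the direction was the same in cells with a Foxp3 UMI alone. In Trp53-intact ADT, however, the deepest cell held 31.3% of the UMIs of these cells, so their CPM depended much on it. Klrg1 and Ccr9 are given here with that cell included. Gata3 there stood at 1110, 395, 396 and 146 CPM, Il1rl1 at 648, 291, 474 and 211 CPM, Klrg1 at 371, 189, 347 and 53.5 CPM and Ccr9 at 240, 43.4, 464 and 59.4 CPM. Without the deepest cells, Il1rl1 in Foxp3-positive cells was at 674, 563, 711 and 291 CPM, so the gap in the Trp53-intact pair narrowed, while Gata3 was at 1175, 530, 570 and 166 CPM. With Foxp3-positive cells only, 0 of the 8 tissue genes were higher and 2 lower in the Trp53-intact pair (median -0.78, where 9.14% of all genes were higher and 2.42% lower), and 1 was higher and 3 lower in the Trp53-deleted pair (median -0.02, 2.79% and 6.62%). Without the deepest cells, 151 of 3812 genes were higher and 96 lower in Foxp3-positive cells of the Trp53-intact pair. B cells, which should lack Il1rl1, held it at 0.643, 1.51, 0.931 and 128 CPM, against 368, 141, 427 and 148 CPM in Tregs and 52.3, 42.8, 34.2 and 64.2 CPM in other CD8-negative T cells. What RNA from other cells adds to the Treg level in Trp53-deleted ADT was not tested. For Klrg1, B cells had at most 0.377 CPM, and for Gata3 at most 20.7 CPM.

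Activation receptors differed between the pairs. Tnfrsf4 in Tregs was 0.326-fold with ADT in the Trp53-intact pair (0.287 to 0.37) and 1.21-fold in the Trp53-deleted pair (1.04 to 1.4). In Foxp3-positive cells Tnfrsf4 stood at 1483, 463, 381 and 1096 CPM, and without the deepest cells at 1587, 834, 461 and 1350 CPM. Tnfrsf9 was 0.415-fold (0.339 to 0.506) and 1.25-fold (0.97 to 1.61), and Pdcd1 0.229-fold (0.177 to 0.293) and 0.836-fold (0.616 to 1.14). The Trp53-intact library was the highest of the 4 in Tnfrsf4, Tnfrsf9 and Pdcd1. Il2ra was lower with ADT in both pairs, at 0.775-fold (0.632 to 0.953) in the first pair and 0.264-fold (0.215 to 0.323) in the second, where it stood at 406 CPM without and 107 CPM with ADT. The difference between the pairs was not tested.

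In the Trp53-intact pair, the heat shock genes Hspa1a and Hspa1b were far lower with ADT: Hspa1a was at 1455 CPM in 86 Tregs without ADT and at 5.1 CPM in 7 Tregs with it. Hspa1a showed the same gap in other CD8-negative T cells, at 1650 and 8.06 CPM, so it was not particular to Tregs. Granzyme B (Gzmb) was at 4.43 CPM in 3 Tregs without ADT and at 261 CPM in 23 Tregs with it, and Gzmc was at least 43.1-fold higher, from 9 Tregs against none (floor of 3 counts in the library). In the Foxp3-positive cells Gzmb was at 0 and 60.4 CPM, and in the Foxp3-negative members at 7.25 and 387 CPM, so most of it lay in the latter. Ifng was at 130 and 21.1 CPM from 11 and 8 Tregs. In Foxp3-positive cells Ifng was at 8.56 and 0 CPM, and in Foxp3-negative members at 207 and 34.4 CPM. Other CD8-negative T cells had 86.4 and 8.56 CPM of Ifng, so its gap was not particular to Tregs. Genes of resting T cells had a median of 0.63 with 3 of 13 higher and none lower, led by Dapl1, Lef1 and Satb1, and other T cells had a median of 1.31 for the same list.

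The other genes named as higher in this pair, Hbegf, Nupr1, Ly6d and Cxcl5, had 54.5%, 68.7%, 61.6% and 58.2% of their UMIs in 1 cell, and all 4 had a log2 ratio below 0 without the deepest cells. Interferon response genes were 10 of 24 higher with a median of 0.92, led by Irf7, Ifit3, Ifit1 and Oasl2, and 2 of 23 were higher with a median of 0.40 without the deepest cells, where 1.04% of all genes were higher.

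In the Trp53-deleted pair, genes of stroma led the list. Col1a1, a fibrillar collagen chain, was at 208 and 3844 CPM, Ptn (pleiotrophin) at 2.56 and 811 CPM and Postn (periostin) at 12.8 and 693 CPM. Col1a1 UMIs were found in 128 of the 175 Tregs with ADT, with 3009 of 5123 in 1 cell. Fibroblast markers, 6 in all with none at 0, summed to 330, 791, 5042 and 7798 CPM in Tregs and to 1730, 945, 2348 and 3549 CPM in other T cells, and their part in these ratios was not tested. B cells of Trp53-deleted ADT held Col1a1 at 1713 CPM, Ptn at 1005 CPM and Postn at 646 CPM, against at most 44, 7.34 and 5.84 CPM in B cells of the other libraries, so these genes were also high there in cells that should lack them. Most of the Col1a1 lay in Foxp3-negative members, at 5038 CPM against 309 CPM in Foxp3-positive cells, but without the deepest cells it was at 384 CPM in all Tregs and 411 CPM in Foxp3-positive cells.

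Cell cycle genes were 15 of 20 higher with ADT in this pair, with a median of 1.16, and 2 of the 13 still measured were higher with a median of 0.62 without the deepest cells, where 2.05% of all genes were higher. Interferon response genes were 2 of 24 higher here (median 0.25), 8 of 24 without the deepest cells (median 0.76), and their median was 1.38 with at most 2 UMIs of other-lineage genes. The IL-2 pathway had 3 of 13 genes lower, Il2ra, the feedback inhibitor Socs2 and the kinase gene Pim1, with a median of -0.73. Over all genes, 3.93% were lower. In Foxp3-positive cells 1 of 13 was lower (median -0.28), where 6.62% of all genes were lower. Without the deepest cells 2 of 13 were lower (median -0.56), as were 254 of 6778 genes. Cxcr6, a tissue homing receptor, was at 234 and 62.3 CPM (0.266-fold, 0.202 to 0.346), and Ahr, a tissue-sensing factor, was 0.319-fold (0.215 to 0.468). Retnla, a gene known from macrophages and eosinophils, was at 438 CPM in 35 Tregs of the Trp53-deleted library and at 5.54, 4.37 and 2.25 CPM in the others, with 188 of its 342 UMIs in 1 cell.

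**Figure D5:**
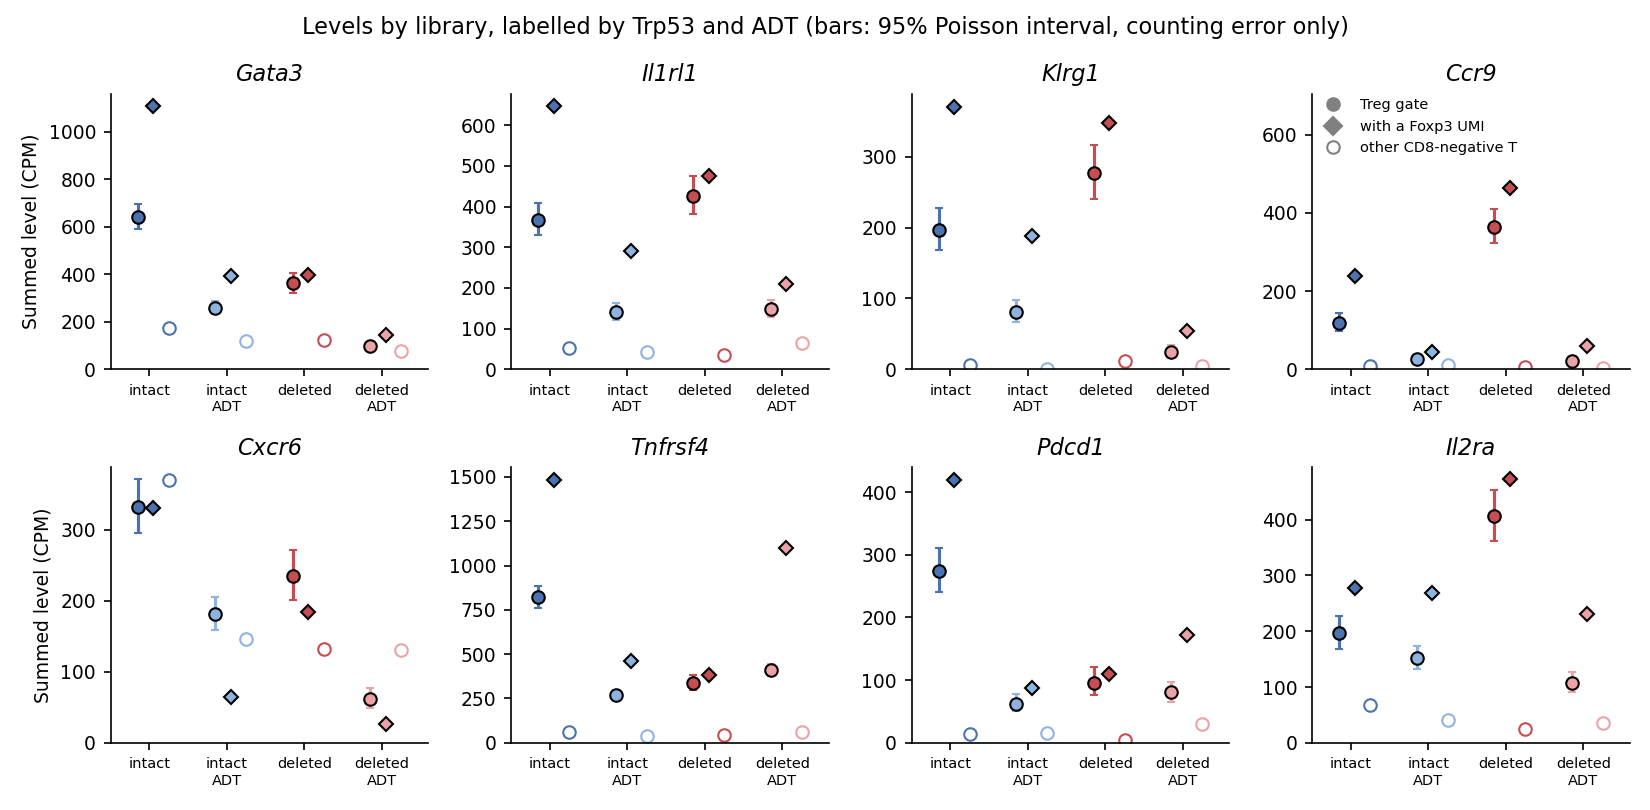
Summed level in CPM of 8 genes in the 4 libraries, for Tregs (filled circles with 95% Poisson intervals), for cells with a Foxp3 UMI (diamonds) and for other CD8-negative T cells (open circles). Gata3, Il1rl1, Klrg1 and Ccr9 are lower with ADT in both pairs, whereas Tnfrsf4 is lower in the Trp53-intact pair alone.

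Trp53-deleted and Trp53-intact Tregs were compared without and with ADT in the same way, in libraries that also serve the ADT pairs. Without ADT, 307 of 7891 genes (3.89%) were at least 2-fold higher and 115 (1.46%) lower in Trp53-deleted, with a median log2 ratio of 0.20 over all genes. Gpr183, an oxysterol receptor that guides lymphocyte positioning, was at 371 and 75.6 CPM (0.203-fold, 0.152 to 0.269), and Odc1, an enzyme of polyamine synthesis, at 910 and 160 CPM (0.176-fold, 0.145 to 0.213). Other CD8-negative T cells had 365 and 144 CPM of Gpr183 and 183 and 49.3 CPM of Odc1. B cells had 383 and 131 CPM of Odc1. Neither gap was thus particular to Tregs. Ccr9 was 3.08-fold (2.46 to 3.88) and Il2ra 2.07-fold (1.72 to 2.5), whereas Tnfrsf4 was 0.414-fold (0.358 to 0.477) and Pdcd1 0.351-fold (0.267 to 0.456). With ADT, 399 of 9547 genes (4.18%) were higher and 310 (3.25%) lower, and the highest named genes were again stromal: Col1a1, Col1a2, Sparc, Ptn and Postn, with Cdkn2a. Gata3 was 0.373-fold (0.302 to 0.457), Klrg1 0.306-fold (0.201 to 0.456) and Cxcr6 0.344-fold (0.265 to 0.442). Interferon response genes had a median of 0.04 with ADT, with 0 of 24 higher and 2 lower. Without the deepest cells 8 of 24 were higher, against 1.8% of all genes, and with at most 2 UMIs of other-lineage genes the median was 1.58.

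Trp53 itself was present in Tregs of all libraries, at 79.8, 67.7, 90.9 and 54.8 CPM from 49, 59, 50 and 48 cells. Its ratio between Trp53-deleted and Trp53-intact was 1.14-fold (0.809 to 1.6) without ADT and 0.809-fold (0.587 to 1.11) with ADT. These intervals cover counting error only, and a difference between the genotypes was not tested. Of the 15 p53 target genes measured without ADT, none was higher and 2 were lower (Pmaip1 and Plk2), with a median of -0.02.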

How the data were processed

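The values analysed were raw UMI counts, deposited as a gene by barcode matrix. Cell Ranger produced it on mm10, in version 2.1.1 per the submitters' processing notes and 3.1.0 per the file headers. All 4 libraries share 1 matrix of 30905 genes, and the deposited suffix table gave each barcode its library. The rest of the genotype, common to all groups, and some measured genes are left unreported.

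Members and gene lists were chosen with earlier results of these data known. Doublets were handled by the gates and by leaving out deep or mixed cells, and no doublet caller was run. Sums per library were tested with edgeR 4.0.16 (TMM, filterByExpr, library block), with DESeq2 1.42.0 as an alternative. The edgeR fit was also run on simulated counts with known changes. These counts had no library effect and no deep cells, so that run does not measure the error of the calls given here. The 4 pairs of sums come from the same libraries, so the pairing is by library. With the library as a block, p-values measure how the difference between the paired sums varied over the 4 libraries. Those libraries differ in Trp53, ADT or age, and nothing says how many mice a library pools.

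Named genes in the Treg comparison were the 14 highest and 10 lowest by log2 fold change among those called and changed the same way in 4 of 4 libraries. Between libraries they were the 6 highest and 6 lowest ratios with at least 40 UMIs over both and a level at least 3 times the lower of those in B cells and neutrophils in the higher library. Intervals are exact Poisson, conditional binomial or Clopper-Pearson at 95% and, like the floor of 3 counts, cover counting error only. Mitochondrial, ribosomal, haemoglobin, immunoglobulin and T cell receptor segments and gene models without names were not named.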

Additional observations from a re-analysis of the deposited data

Results flagged for a closer look

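In 3 genes, the difference with ADT pointed in opposite directions in the Trp53-intact and Trp53-deleted pairs, each with 1 library a group, and the difference between the pairs was not tested. C3, a complement component, had a log2 ratio of 1.12 in the Trp53-intact pair and -5.01 in the Trp53-deleted pair. Fmo2, a flavin monooxygenase, had 1.38 and -3.70. Krt15, a keratin of basal epithelium, had 1.49 and -3.70. In the Trp53-deleted pair, 60.8% of the C3 UMIs, 79.1% of the Fmo2 UMIs and 48.5% of the Krt15 UMIs came from 1 cell.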

How the results depend on the processing

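The Treg share of CD3-positive cells was lower with ADT in both pairs under each setting tried. In library order it was 24.1%, 8.09%, 22.3% and 10.9% in cells thinned to 1500 UMIs, 18.5%, 7.64%, 22.3% and 5.32% at 1000 UMIs, and 14.3%, 5.1%, 17.2% and 6.49% when only Foxp3 counted. Thinned cells had to meet every gate again, the CD3 limit included. The Trp53-intact difference with ADT went from -16.3 points to -10.9 at 1000 UMIs and -9.22 with Foxp3 only. Trp53-deleted minus Trp53-intact without ADT turned from -3.29 points to 3.74 and 2.87 under the same settings.

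Counts of genes moved more. For Tregs against other T cells, the 77 higher genes became 2 with no replicate block, 329 with no filter on low counts, 168 with Foxp3 only, 183 in thinned cells, 257 with at most 2 UMIs of other-lineage genes, 268 without the deepest cells and 8 in Foxp3-negative members. Leaving out 1 library at a time gave 20 to 60 higher and 3 to 55 lower. Of the 77 and the 52, as few as 17 and 3 recurred, both without Trp53-deleted. The 52 lower genes became 0 with no replicate block, 80 by DESeq2, 296 with no filter, 89 against T cells with no Ikzf2 or Ctla4 UMI, 106 with Foxp3 only, 29 with the Ikzf2 and Ctla4 limit only, 141 thinned, 167 with few other-lineage UMIs, 157 without the deepest cells and 1 in Foxp3-negative members. Without the block, edgeR had 725 genes at an unadjusted p under 0.05. Between the kinds of member, the 2 higher and 7 lower became 72 and 53 without the deepest cells, 16 and 23 by DESeq2, 0 and 4 with no replicate block, 95 and 153 with no filter and 52 and 33 with few other-lineage UMIs, and leaving out 1 library gave 0 to 2 and 0 to 16.

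Between libraries, a pseudocount of 5 or 50 CPM moved the ADT counts in Trp53-intact from 231 higher to 720 or 89 and from 100 lower to 239 or 46, and in Trp53-deleted from 376 to 846 or 151 and from 353 to 870 or 140. For genotype it moved 307 to 908 or 99 and 115 to 219 or 55 without ADT, and 399 to 844 or 174 and 310 to 707 or 137 with ADT. Higher counts with Foxp3 only, without the deepest cells, with few other-lineage UMIs and by the mean per cell were 506, 76, 120 and 84 for ADT in Trp53-intact, 155, 139, 123 and 176 for ADT in Trp53-deleted, and 179, 132, 124 and 146 for genotype with ADT. The 310 lower became 89 without the deepest cells and 104 by the mean per cell.

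Some directions reversed, and the cause was not tested. Without the deepest cells and with few other-lineage UMIs, Hbegf went from 3.63 to -0.11 and -0.47, Nupr1 from 2.99 to -1.57 and -1.13, and Ly6d from 2.94 to -0.56 and -0.47, while Cxcl5 went from 2.90 to -0.054 without the deepest cells. S100a8 went from -2.06 to 1.99 with Foxp3 only and 1.79 with few other-lineage UMIs, and Reg3g from -4.65 to 0.051 with the latter. The median of the cytokine list in Trp53-deleted against Trp53-intact without ADT went from -1.22 to 0.48 with Foxp3 only. With ADT, the AP-1 list went from -0.69 to 0.26 without the deepest cells, 0.025 by the mean per cell and 0.17 with few other-lineage UMIs, and the cell cycle list from 0.88 to -0.63 with the latter.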
